A study of Mus musculus with 12 samples.

Results

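Imprinted growth network genes were followed in 2 tissues, skeletal muscle and heart, of mice without *Tk2*. The set lists 10 genes (*Mest*, *Plagl1*, *Ndn*, *Dlk1*, *Meg3*, *Mir323*, *Mirg*, *Peg3*, *Zim1* and *H19*), and a gene counted as measured where a probe set of the array carried its symbol and no other, the brightest one being used. By this rule 8 of the 10 were measured, out of 18820 genes in all. *H19* had no probe set annotated with its symbol, and *Mirg* only 1 that it shares with another gene, so neither has a value here. The list was chosen by measured fold changes of these arrays, among the known results being the change of *Mest* and *Mir323* in skeletal muscle and the difference of *Mir323* between the tissues. Values of the 8 genes that use the skeletal muscle arrays are therefore a description: no p-value is given for them, and where the fit over all genes called a member there, nothing is read from the call.

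Gene expression had been measured with 12 Affymetrix arrays in hind limb muscle and heart of C57BL/6 pups 11 days old. KO pups were homozygous for the disrupted gene of mitochondrial thymidine kinase 2 (*Tk2*-/-), and both they and WT pups (*Tk2*+/+) came from matings of heterozygous parents. The groups were KO skeletal muscle, WT skeletal muscle, KO heart and WT heart, with 3 arrays each. Each probe set has 1 linear intensity per array, called signal here, and fold changes are differences of log2(signal + 16), which understates the change of dim genes.

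Imprinted genes are expressed mainly from the copy inherited from 1 parent, and many of them act on growth before and shortly after birth. *Mest*, *Plagl1*, *Ndn*, *Dlk1*, *Peg3* and *H19* have been described in mice as members of a co-regulated network that is highly expressed in growing organs and is shut down as growth slows after birth. *Dlk1*, *Meg3*, *Mirg* and *Mir323* lie in 1 domain on chromosome 12 that ends at *Dio3*. There *Dlk1* is expressed from the paternal copy, and *Meg3*, *Rian*, *Mirg* and a long series of small RNA genes from the maternal copy, in the same direction along the chromosome.

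The miRNAs that carried the largest differences are shown by their mature arms, from RefSeq (GRCm38.p6), with the seed, bases 2 to 8, in capitals. They are *Mir323*, the member of the set, and the 3 other miRNA genes of the domain with the largest difference in skeletal muscle (*Mir377*, *Mir379*, *Mir382*), followed by the arms that share a seed within the domain.
miR-323-5p (chr12:109712523-109712544, plus strand): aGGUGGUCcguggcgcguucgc
miR-323-3p (chr12:109712558-109712578, plus strand): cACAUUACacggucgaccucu
miR-377-5p (chr12:109740515-109740536, plus strand): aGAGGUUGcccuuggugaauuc
miR-377-3p (chr12:109740553-109740574, plus strand): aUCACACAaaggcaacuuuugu
miR-379-5p (chr12:109709065-109709085, plus strand): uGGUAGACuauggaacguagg
miR-379-3p (chr12:109709102-109709123, plus strand): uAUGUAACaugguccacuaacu
miR-382-5p (chr12:109733781-109733802, plus strand): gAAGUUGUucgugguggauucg
miR-382-3p (chr12:109733819-109733840, plus strand): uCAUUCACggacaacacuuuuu
miR-411-3p (chr12:109710225-109710246, plus strand): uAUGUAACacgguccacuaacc
miR-376b-5p (chr12:109723471-109723492, plus strand): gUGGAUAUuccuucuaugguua
miR-376c-5p (chr12:109722733-109722754, plus strand): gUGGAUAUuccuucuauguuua
All 36 miRNA genes measured in the domain, *Mir323* among them, were found in the RefSeq table, with 68 mature arms and 66 different seeds. Only 2 seeds were shared by genes of the domain, AUGUAAC by miR-379-3p and miR-411-3p and UGGAUAU by miR-376b-5p and miR-376c-5p. The probe sets are assigned to the hairpin genes, so the values below do not tell the arms apart and do not measure mature miRNA.

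Promoters of 8 of the 10 genes were in the RefSeq table (250 bases before and 50 bases after a start), with 11 starts in all. Those of *Mest*, *Peg3*, *Zim1* and *Meg3* are printed because *Mest* showed the largest decrease of a protein-coding member, *Peg3* and *Zim1* are neighbours with the opposite sign in skeletal muscle, and *Meg3* opens the series of maternal RNAs. Capitals mark GGGCGG (the GC box) in *Mest* and *Zim1*, GGGGCCCC (a sequence that the *Plagl1* product is known to bind) in *Peg3*, and 2 overlapping matches of TATAAA, 1 on each strand, in *Meg3*.
Mest promoter (chr6:30737800-30738099, plus strand): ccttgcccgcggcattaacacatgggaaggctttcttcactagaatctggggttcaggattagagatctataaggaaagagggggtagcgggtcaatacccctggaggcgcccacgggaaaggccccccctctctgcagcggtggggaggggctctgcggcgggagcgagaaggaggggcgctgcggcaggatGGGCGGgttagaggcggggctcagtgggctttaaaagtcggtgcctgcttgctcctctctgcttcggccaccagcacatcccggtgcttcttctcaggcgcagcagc
Peg3 promoter (chr7:6730370-6730669, minus strand): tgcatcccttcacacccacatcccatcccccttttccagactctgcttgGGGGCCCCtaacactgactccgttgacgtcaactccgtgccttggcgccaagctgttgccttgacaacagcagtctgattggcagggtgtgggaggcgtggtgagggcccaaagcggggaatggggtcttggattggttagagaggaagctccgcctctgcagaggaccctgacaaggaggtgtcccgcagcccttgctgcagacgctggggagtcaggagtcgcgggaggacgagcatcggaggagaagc
Zim1 promoter (chr7:6696383-6696682, minus strand): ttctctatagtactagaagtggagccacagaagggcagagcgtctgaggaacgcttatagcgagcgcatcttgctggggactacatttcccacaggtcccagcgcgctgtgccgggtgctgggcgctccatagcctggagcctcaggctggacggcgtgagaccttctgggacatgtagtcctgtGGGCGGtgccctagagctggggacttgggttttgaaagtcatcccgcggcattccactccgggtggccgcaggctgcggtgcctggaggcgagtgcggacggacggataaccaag
Meg3 promoter (chr12:109540746-109541045, plus strand): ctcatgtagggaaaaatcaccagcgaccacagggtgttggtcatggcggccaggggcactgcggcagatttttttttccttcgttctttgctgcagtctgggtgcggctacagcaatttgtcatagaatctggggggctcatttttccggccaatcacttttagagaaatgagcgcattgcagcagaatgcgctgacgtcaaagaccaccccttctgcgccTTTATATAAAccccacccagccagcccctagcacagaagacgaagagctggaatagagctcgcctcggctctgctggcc
Both strands were searched. GGGGCCCC was present in 1.08% of the 32851 promoters of the table and among the members in *Peg3* alone. TATAAA was present in 13.6% of all promoters and among the members in *Meg3* alone, where its matches begin 29 and 25 bases before the start. GGGCGG was present in 35.7% of all promoters and, among the members, in *Mest*, *Plagl1*, *Ndn* and *Zim1*. AANATGGC, the core of the sequence bound by Yy1, was present in 6.05% of all promoters and in none of the 11 member promoters. The member promoters held between 1 and 26 CpG dinucleotides, against a median of 7 over the table, and 10 of the 11 held more than that median. *Mest* has 3 starts and *Meg3* 2 in the table, and which of them the RNA of these tissues used was not measured.

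Some features of the arrays bear on every value. The mean signal of an array lay between 147 and 168 in KO heart and between 227 and 243 in WT heart, while skeletal muscle arrays lay between 225 and 246 in KO and between 202 and 252 in WT mice. Over all genes the median of log2 fold changes was -0.28 for heart and -0.02 for skeletal muscle, so heart values are also given after quantile normalization within the tissue, which brings all arrays of a tissue to 1 distribution. *Tk2* itself was at 36.0 ± 8.92 in KO heart and 75.2 ± 5.98 in WT heart (SD, n = 3), and at 52.5 ± 10.8 in KO and 64.8 ± 3.17 in WT skeletal muscle, where it did not pass the threshold. The position of its probes against the disruption was not stated, so this is no check of the genotype labels. Signal of *Xist*, which only females express, was high on 2 of 3 KO and 1 of 3 WT skeletal muscle arrays and on 3 of 3 KO and 2 of 3 WT heart arrays, so the sexes were not balanced, and the arrays of both tissues of a genotype cannot all have come from the same 3 mice. Among skeletal muscle fibre markers 16 of 17 were higher in WT skeletal muscle than in WT heart, and of 14 cardiomyocyte markers 12 were lower, as the tissue labels say.

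In skeletal muscle, 6 members were lower in KO than in WT mice past the threshold (adjusted p under 0.05, limma, over all genes) and 1, *Zim1*, was higher. *Peg3*, higher in KO, did not pass. Over all genes 10.9% were lower and 11.6% higher past the same threshold. Since this comparison was among the results known when the list was made, nothing is read from these counts. The KO arrays lay wholly below the WT arrays for 6 members and wholly above them for 2, against 18.8% and 16.9% of all genes. The median log2 fold change of the 8 genes was -1.07.

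**Figure D1:**
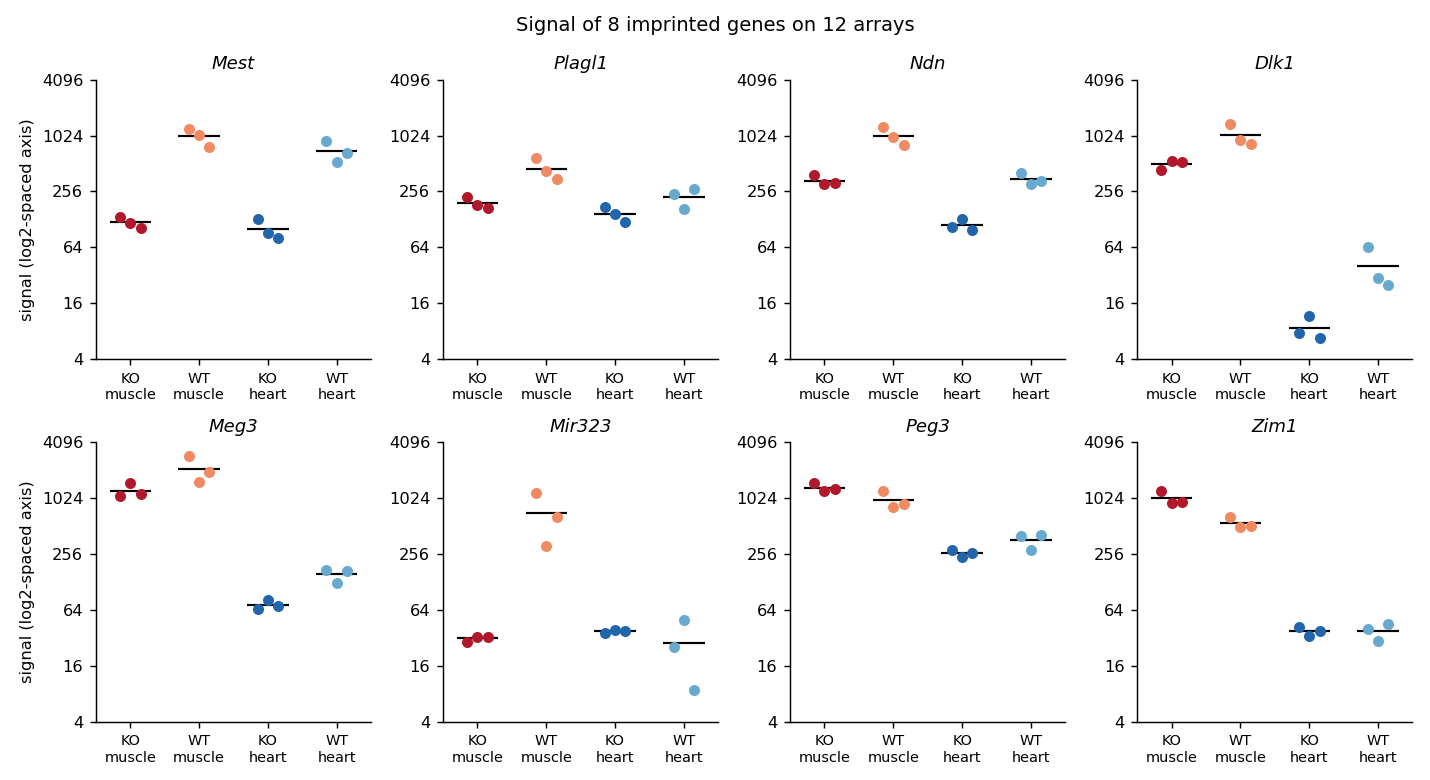
Signal of the 8 measured genes on a log2-spaced axis, with 1 point per array (replicates 1 to 3 from left to right) and the group mean as a line, for KO and WT skeletal muscle (KO muscle, WT muscle) and KO and WT heart. In skeletal muscle the KO points lie below the WT points for 6 genes and above them for Peg3 and Zim1, and for all 8 genes the highest WT muscle point is replicate 1.

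*Mest* encodes an enzyme-like membrane protein of the alpha/beta hydrolase family and is named for its expression in embryonic mesoderm. Its signals were 137, 118 and 104 in KO skeletal muscle, against 1198, 1037 and 781 in WT skeletal muscle. The lowest WT array was several times above the highest KO array. The log2 fold change was -2.90 ± 0.20 (SE), and the KO mean was 11.9% of the WT mean. *Plagl1* encodes a zinc finger transcription factor that activates other imprinted genes. It had signals of 224, 183 and 169.9 in KO and 587, 420.4 and 347 in WT skeletal muscle, without overlap, and a log2 fold change of -1.14 ± 0.20. *Ndn* encodes necdin, a protein that restrains the cell cycle and is used by differentiating muscle precursors. It had signals of 382, 307 and 317 in KO and 1263, 991 and 803 in WT skeletal muscle, again without overlap, and a log2 fold change of -1.54 ± 0.16.

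In the chromosome 12 domain the sizes differed between genes. *Dlk1* encodes a membrane and secreted protein of the Notch ligand family that inhibits fat cell formation and promotes muscle growth. Its signals were 433, 543 and 536 in KO and 1364, 927 and 833 in WT skeletal muscle, a log2 fold change of -0.999 ± 0.22, without overlap. *Meg3* is a long non-coding RNA. Its signals were 1082, 1478 and 1146 in KO and 2899.5, 1531 and 1981 in WT skeletal muscle, a log2 fold change of -0.75 ± 0.19, and KO replicate 2 lay just under WT replicate 2. Without WT replicate 1 the *Meg3* fold change was -0.50 and no longer past the threshold.

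*Mir323* encodes the hairpin whose arms are printed above. It had signals of 29.3, 33.0 and 32.6 in KO skeletal muscle, against 1176, 316 and 641 in WT skeletal muscle. The KO arrays were close together at the level of the hearts, and the WT arrays were wide apart but all far above them. The log2 fold change was -3.75 ± 0.36, the largest in size among the members, and the KO mean was 4.45% of the WT mean. With 1 of the 6 skeletal muscle arrays left out in turn it lay between -4.22 and -3.30.

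The 2 members that lie side by side on chromosome 7 had the opposite sign. *Peg3* encodes a large zinc finger protein of the paternal copy, which is used by muscle stem cells. Its signals were 1479.7, 1236 and 1279 in KO and 1235, 826 and 894 in WT skeletal muscle. The groups did not overlap, but KO replicate 2 was nearly level with WT replicate 1, and the log2 fold change was 0.45 ± 0.16. *Zim1*, a zinc finger gene of the maternal copy, had signals of 1213, 916 and 937 in KO and 649, 497 and 519 in WT skeletal muscle. All KO arrays were above all WT arrays, and the log2 fold change was 0.86 ± 0.14.

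The spread within WT skeletal muscle had 1 direction for the whole set. WT replicate 1 was the highest of its group for 8 of 8 members, whereas it was the highest for 38.6% of all genes and for 13 of 43 other imprinted genes. No replicate of another group was highest for more than 5 members. Without this array 5 members were lower and 2 were higher past the threshold, *Meg3* being the one lost and *Peg3* the one gained. Of all 18820 genes 1421 were lower and 1641 higher without it. The same array had the highest sum of fibroblast markers and of proliferating cell markers in its group (18228 and 2544) but not of satellite cell and myoblast markers (4302), and their part in the result was not tested.

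In heart, 6 members were lower in KO than in WT mice past the threshold and none was higher (limma, adjusted p over all genes). Over all genes 49.0% were lower and 1.99% higher. Whether heart values also entered the choice of the list is not recorded. The heart p-values of members are therefore not read as independent support. After quantile normalization within heart 3 members, *Mest*, *Dlk1* and *Ndn*, remained lower, against 17.9% of all genes, and none was higher, against 13.9%. The median of the 8 genes was -0.75 with the deposited values and -0.14 after quantile normalization, beside -0.28 and 0.00 for all genes. KO arrays lay wholly below WT arrays for 5 members, against 53.3% of all genes, and wholly above them for none, against 3.16%.

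*Mest* had signals of 131, 91.5 and 80.7 in KO heart and 905, 529.6 and 657 in WT heart. The groups were far apart, and the KO mean was 14.5% of the WT mean. *Mest* fell by 2.60 ± 0.20 on the log2 scale (adjusted p = 4.62e-07) and, after quantile normalization, by 1.97 ± 0.19 (adjusted p = 1.70e-05, limma). Its signals in KO skeletal muscle and KO heart overlapped, and so did those in WT skeletal muscle and WT heart. *Ndn* had signals of 106, 130.2 and 97.7 in KO heart and 403, 311 and 334 in WT heart, without overlap. It fell by 1.52 ± 0.16 (adjusted p = 2.66e-06) and by 0.88 ± 0.14 after quantile normalization (adjusted p = 5.15e-04, limma). The KO means of *Ndn* were 32.9% of the WT mean in skeletal muscle and 31.9% in heart.

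*Dlk1* was dim in heart, with signals of 7.60, 11.6 and 6.78 in KO and 65.3, 29.9 and 25.1 in WT mice. The groups did not overlap, and WT replicate 1 stood well above the others of its group. *Dlk1* fell by 1.12 ± 0.22 (adjusted p = 4.46e-04) and by 0.996 ± 0.21 after quantile normalization (adjusted p = 0.00356, limma). *Meg3* had signals of 65.8, 81.8 and 70.0 in KO and 175, 126 and 169 in WT heart, without overlap. It fell by 0.96 ± 0.19 with the deposited values (adjusted p = 5.52e-04, limma). After quantile normalization its log2 fold change was -0.38 ± 0.23 and did not pass.

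The remaining members had no change in heart that both versions of the values shared. *Plagl1* had signals of 176, 147 and 119.9 in KO and 239.7, 166 and 272 in WT heart, and the groups overlapped. Its log2 fold change was -0.55 ± 0.20 (adjusted p = 0.0265) with the deposited values and 0.10 ± 0.18 (adjusted p = 0.698, limma) after quantile normalization. *Peg3* had signals of 284, 239.8 and 266 in KO and 404, 286 and 412 in WT heart, without overlap but with KO replicate 1 nearly level with WT replicate 2. Its log2 fold change was -0.44 ± 0.16 (adjusted p = 0.0266) with the deposited values and 0.24 ± 0.18 (adjusted p = 0.345, limma) after quantile normalization, so its direction in heart depends on the scaling, as does that of *Plagl1*. With 1 array left out in turn the calls of both were lost in 4 cases each. Over all cases, lost or not, the log2 fold changes lay between -0.74 and -0.41 for *Plagl1* and between -0.61 and -0.35 for *Peg3*. *Zim1* was dim, with signals of 41.8, 33.6 and 37.9 in KO and 40.4, 29.4 and 45.0 in WT heart, and the groups overlapped. Its log2 fold change was -0.01 ± 0.14, with a 95% interval of -0.31 to 0.30. *Mir323* was dim as well, at 36.5, 39.1 and 38.4 in KO and 25.3, 50.2 and 8.73 in WT heart. The WT arrays lay on both sides of the KO arrays, and the log2 fold change was 0.41 ± 0.36.

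**Figure D2:**
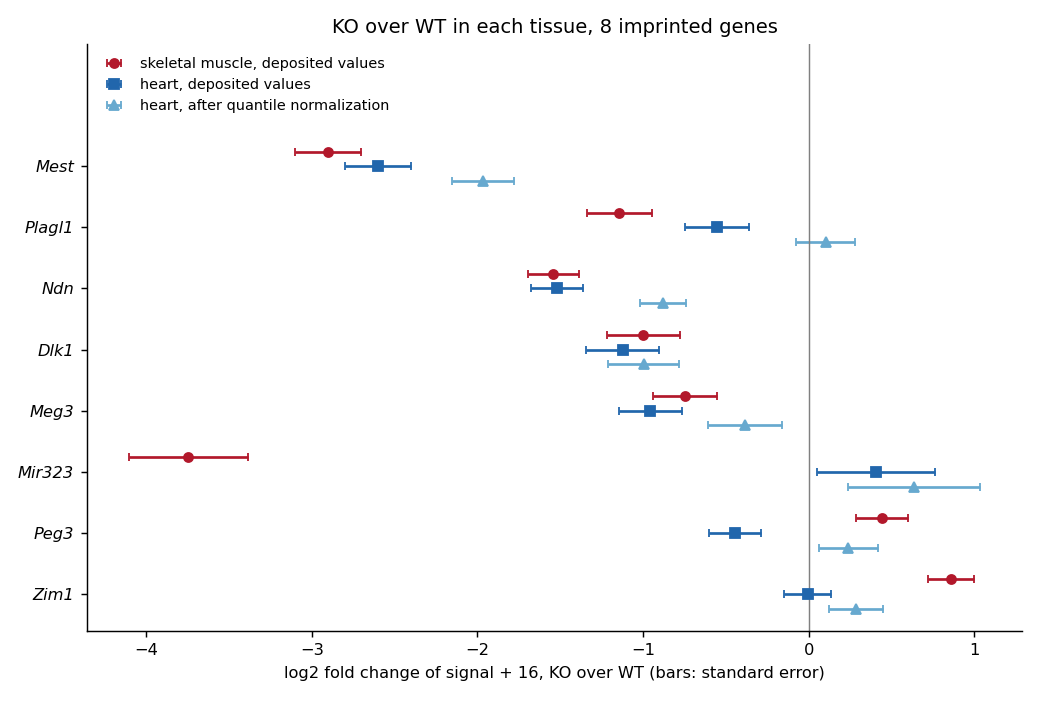
Log2 fold change of signal + 16, KO over WT, with its standard error (n = 3 arrays per group), for the 8 measured genes in skeletal muscle and heart with the deposited values and in heart after quantile normalization. Mest, Ndn, Dlk1 and Meg3 lie below 0 in all 3 versions, and Mir323 is at -3.75 in skeletal muscle alone. Plagl1, Peg3 and, from -0.01 to 0.28, Zim1 change side in heart with the scaling.

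The KO to WT fold change of a member in skeletal muscle was also set against that in heart (skeletal muscle minus heart). One term of this difference is the skeletal muscle comparison by which the list was chosen, so the values are a description and no p-value is given. With the deposited values the fit called 2 members higher, *Peg3* and *Zim1*, and 1 lower, *Mir323*, where 42.7% of all genes were called (41.3% higher, 1.39% lower). After quantile normalization it called 4, *Mest*, *Plagl1*, *Ndn* and *Mir323*, all lower, where 10.5% of all genes were called (4.54% lower). Nothing is read from these counts.

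The difference of *Mir323* was -4.15 ± 0.51 with the deposited values and -4.43 ± 0.56 after quantile normalization. Its WT heart mean of 28.1 limits the decrease that heart could show. That of *Peg3* was 0.89 ± 0.22 and 0.07 ± 0.26 after quantile normalization, and that of *Zim1* 0.87 ± 0.20 and 0.46 ± 0.23. For *Mest* it was -0.30 ± 0.28 with the deposited values and -0.99 ± 0.26 after quantile normalization. *Ndn* had -0.02 ± 0.22 and -0.76 ± 0.20, and *Plagl1* -0.59 ± 0.28 and -1.30 ± 0.25. In each of these 5 protein-coding genes the value was lower after quantile normalization. For *Dlk1* and *Meg3* the 95% intervals with the deposited values, -0.54 to 0.79 and -0.37 to 0.79, held 0.

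In WT mice all 8 members had a higher mean in skeletal muscle than in heart. The WT skeletal muscle arrays also enter the comparison by which the list was chosen, so genes with a high level there were favoured and these values are a description. The fit called 8 of 8 higher in skeletal muscle, where 30.6% of all genes were (18.4% were lower, 49.1% were called in either direction). After quantile normalization it was again 8 of 8, where 49.6% of all genes were (60.3% in either direction). WT skeletal muscle arrays lay wholly above WT heart arrays for 7 members, with overlap in *Mest*, and for 35.6% of all genes (20.1% lay wholly below). The WT means of *Dlk1* were 1041 in skeletal muscle and 40.1 in heart, a log2 difference of 4.27 ± 0.22, and those of *Mir323* were 711 and 28.1 (3.97 ± 0.36). *Meg3* (3.60 ± 0.19) and *Zim1* (3.40 ± 0.14) followed, with WT means 13.6 and 14.5 times as high in skeletal muscle as in heart. The differences were smaller for *Ndn* (1.49 ± 0.16), *Peg3* (1.38 ± 0.16), *Plagl1* (0.94 ± 0.20) and *Mest*, which had WT means of 1005 and 697 (0.53 ± 0.20). With 1 array left out in turn the difference of *Mest* lay between 0.35 and 0.73.

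In KO mice the members were spread over all 3 arrangements of the tissues. KO skeletal muscle arrays lay wholly above KO heart arrays for *Dlk1*, *Meg3*, *Ndn*, *Peg3* and *Zim1*, overlapped for *Mest* and *Plagl1*, and lay wholly below them for *Mir323*. These are 5 members above, where 67.8% of all genes were wholly above and 4.88% wholly below, so the count is no higher than the general share. In order of their means the groups ran WT skeletal muscle, KO skeletal muscle, WT heart and KO heart for *Dlk1* and *Meg3*, with no overlap between neighbours. For *Mest*, *Plagl1* and *Ndn* WT heart came before KO skeletal muscle. *Mest* was apart only between WT heart and KO skeletal muscle, *Plagl1* only between WT skeletal muscle and WT heart, and in *Ndn* WT heart and KO skeletal muscle overlapped. For *Peg3* and *Zim1* KO skeletal muscle came first, and WT and KO heart, the last of that order, overlapped for *Zim1*. For *Mir323* WT skeletal muscle stood above the other 3 groups, whose means lay between 28.1 and 38.0.

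The rest of the chromosome 12 domain was described from its order on the reference. From *Dlk1* to *Dio3* the reference table lists 103 genes, of which 42 had a probe set of their own, 39 of them no members. Of these 39 genes 31 fell in KO skeletal muscle past the threshold and none was higher (limma), with a median log2 fold change of -1.09, beside -0.02 for all genes. They include 35 miRNA genes, of which 29 fell. KO arrays lay wholly below WT arrays for 35 of the 39 genes, against 18.8% of all genes. Over all genes 10.9% were lower past the threshold. These genes lie between members of the set and are not independent of them. In WT skeletal muscle replicate 1 was the highest array for 35 of the 35 miRNA genes, as it was for all 8 members.

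**Figure D3:**
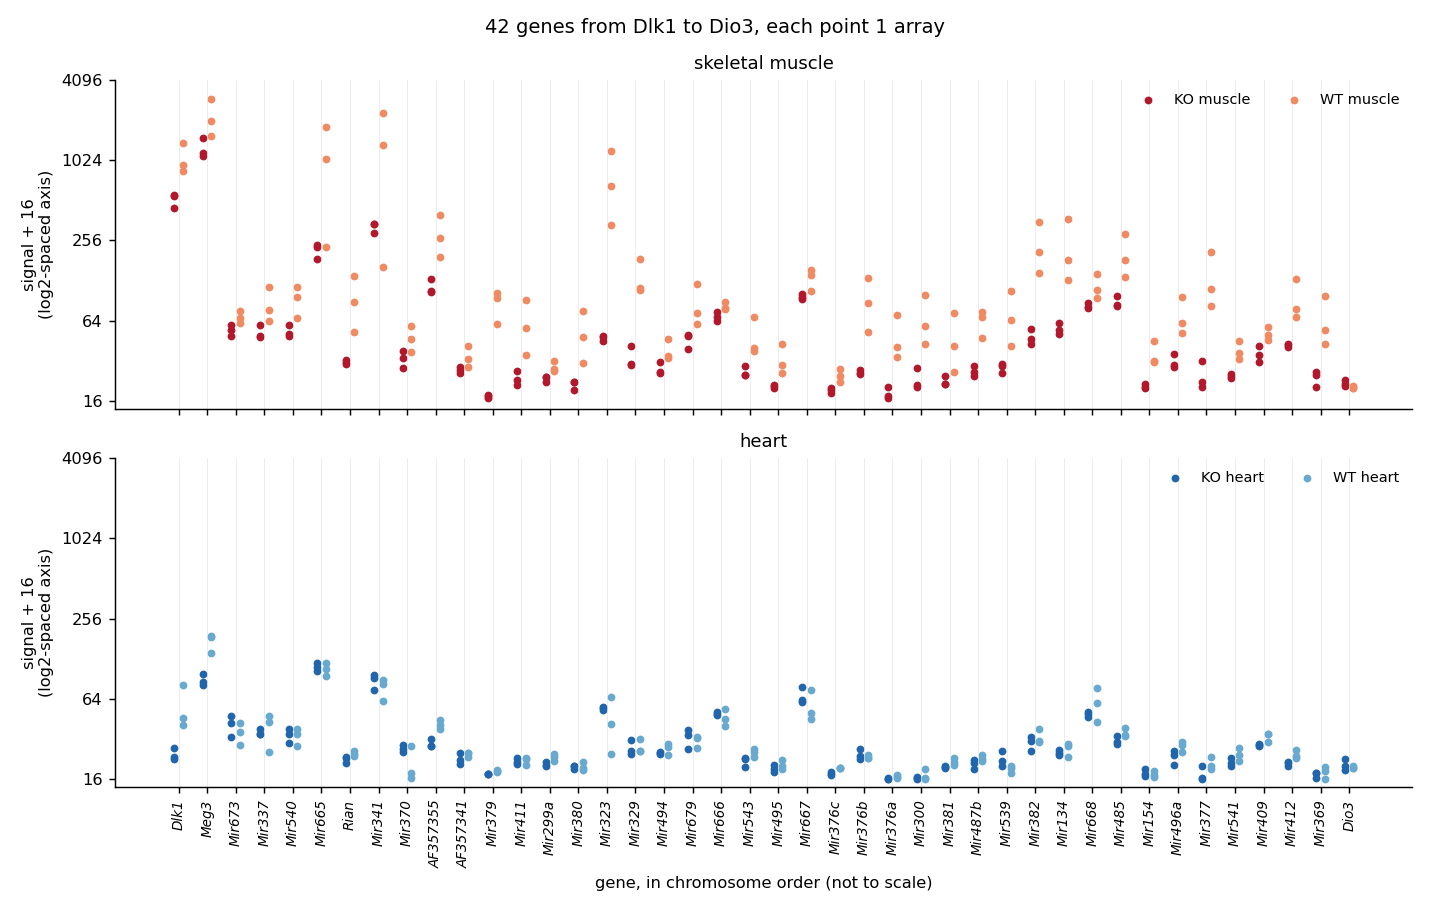
Signal + 16 of the 42 genes measured from Dlk1 to Dio3 on a log2-spaced axis, in chromosome order and not to scale, with skeletal muscle above and heart below. Each point is 1 array, KO left and WT right at each gene. In skeletal muscle the WT points of most small RNA genes stand above the KO points, and in heart both lie low, with medians of 7.60 in KO and 8.59 in WT heart over 35 miRNA genes.

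The 8 genes with the largest decrease were 7 miRNA genes and *Rian*, a non-coding RNA that hosts small nucleolar RNAs. *Mir377* had signals of 15.8, 4.35 and 6.06 in KO and 193, 66.3 and 94.9 in WT skeletal muscle (log2 fold change -2.35, adjusted p = 1.16e-05). *Mir379* had 0.810, 1.67 and 1.53 in KO and 87.3, 44.8 and 78.4 in WT skeletal muscle (-2.28, adjusted p = 8.52e-08). In neither gene did the groups overlap. *Mir382* had 39.3, 26.8 and 30.8 in KO and 338, 131 and 193 in WT skeletal muscle (-2.21, adjusted p = 7.77e-06). *Mir329* (-1.99), *Mir134* (-1.89), *Mir665* (-1.81), *Mir376b* (-1.69) and *Rian* (-1.47) also fell. For *Mir665* the call was lost without WT replicate 1 or 3, and with 1 array left out in turn its fold change lay between -2.68 and -1.18.

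The miRNA genes that share a seed with another of the domain differed in size. *Mir379* fell by 2.28 and *Mir411* by 1.28, with *Mir411* at 7.64 ± 2.94 in KO and 45.4 ± 28.6 in WT skeletal muscle. *Mir376b* fell by 1.69 and *Mir376c* by 0.37, with *Mir376c* at 3.15 ± 0.830 in KO and 8.88 ± 2.65 in WT skeletal muscle. *Mir376c* lies below the offset in both groups, which limits the fold change it can show. *Mir341*, the brightest miRNA gene of the domain in WT skeletal muscle, went against the pattern on 1 array. It had 324, 324 and 273 in KO and 2300.3, 147 and 1308 in WT skeletal muscle, so WT replicate 2 was below every KO array, and it did not pass (-1.30, adjusted p = 0.164, named after its values were seen). *Dio3*, an enzyme that inactivates thyroid hormone and closes the domain, was at 5.73 ± 1.19 in KO and 4.39 ± 0.467 in WT skeletal muscle and did not pass.

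In heart the same domain was close to the floor of the array. Mean signals of the 35 miRNA genes ran between 0.143 and 95.2 in KO heart and between 0.607 and 90.9 in WT heart, and between 1.34 and 307 in KO and 8.88 and 1252 in WT skeletal muscle. None of the 35 passed in heart with the deposited values, where 49.0% of all genes were lower and 1.99% higher. Of the 39 genes 1 did, the small RNA gene *AF357355*, which fell by 0.48 (named after its values were seen). After quantile normalization 2 of the 39 were higher and none of them lower, against 13.9% and 17.9% of all genes. These were *Mir666* (0.33, adjusted p = 0.0152) and *Mir667* (0.60, adjusted p = 0.0190, limma), both named after their values were seen, with deposited signals of 33.6 ± 1.51 and 51.1 ± 9.59 in KO heart and 30.1 ± 6.92 and 40.7 ± 15.3 in WT heart. The median miRNA gene, at 8.59 in WT heart, lay below the offset of 16, which limits the fold change it could show. In WT mice 35 of 35 miRNA genes were higher in skeletal muscle than in heart past the threshold, where 30.6% of all genes were. After quantile normalization it was again 35 of 35, where 49.6% of all genes were. These genes lie among members chosen with the WT skeletal muscle arrays, so nothing is read from the counts.

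Imprinted genes outside the set were taken from a list of 54, of which 43 had a probe set of their own. In skeletal muscle 11 fell and 2 rose past the threshold (10.9% and 11.6% of all genes were lower and higher), with a median log2 fold change of -0.07. *Rian* fell by 1.47. *Cdkn1c*, an inhibitor of cyclin-dependent kinases and of growth, had signals of 368, 369.5 and 354 in KO and 992, 1024 and 832 in WT skeletal muscle, and fell by 1.34 (adjusted p = 7.86e-07). The KO arrays of *Cdkn1c* were close together and far below the WT arrays. *Peg10* (-0.85), *Nnat* (-0.81) and *Airn* (-0.78) also fell, and *Gab1*, an adaptor of growth factor receptors, rose by 0.63. The other gene that rose was *Inpp5f* (0.50, named after its values were seen).

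Imprinted genes of insulin-like growth factor signalling were bright in skeletal muscle, and only 1 of the 3 named here passed. *Igf2*, the fetal insulin-like growth factor, was the brightest of them, at 4159.7 ± 139 in KO and 4368 ± 369 in WT skeletal muscle (-0.07, adjusted p = 0.831). *Igf2r*, which clears *Igf2*, was at 619 ± 6.73 in KO and 715 ± 31.8 in WT skeletal muscle (-0.20, adjusted p = 0.198). *Grb10*, which dampens insulin and growth factor signalling, was at 828 ± 143 in KO and 1275 ± 144 in WT skeletal muscle and fell by 0.62 (adjusted p = 0.00602, limma). *Rtl1*, another gene of the chromosome 12 domain, has no value here.

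In heart 23 of the 43 genes fell and 2 rose, *Peg10* (0.41) and *Magel2* (0.43, named after its values were seen), against 49.0% and 1.99% of all genes. After quantile normalization 5 fell and 6 rose, against 17.9% and 13.9% of all genes, so neither count stands out from the general share. The largest decreases were those of *Grb10* (-1.18), *Igf2* (-1.14), *Impact* (-1.12), *Slc38a4* (-1.05), *Cd81* (-0.78) and *Ube3a* (-0.77). *Igf2* was at 703 ± 98.9 in KO and 1585 ± 343 in WT heart, and its fold change after quantile normalization was -0.46 (adjusted p = 0.0168). *Grb10* was at 326 ± 58.9 in KO and 753 ± 86.2 in WT heart, and -0.49 after quantile normalization (adjusted p = 0.00520). *Cd81* and *Ube3a* no longer passed after quantile normalization.

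**Figure D4:**
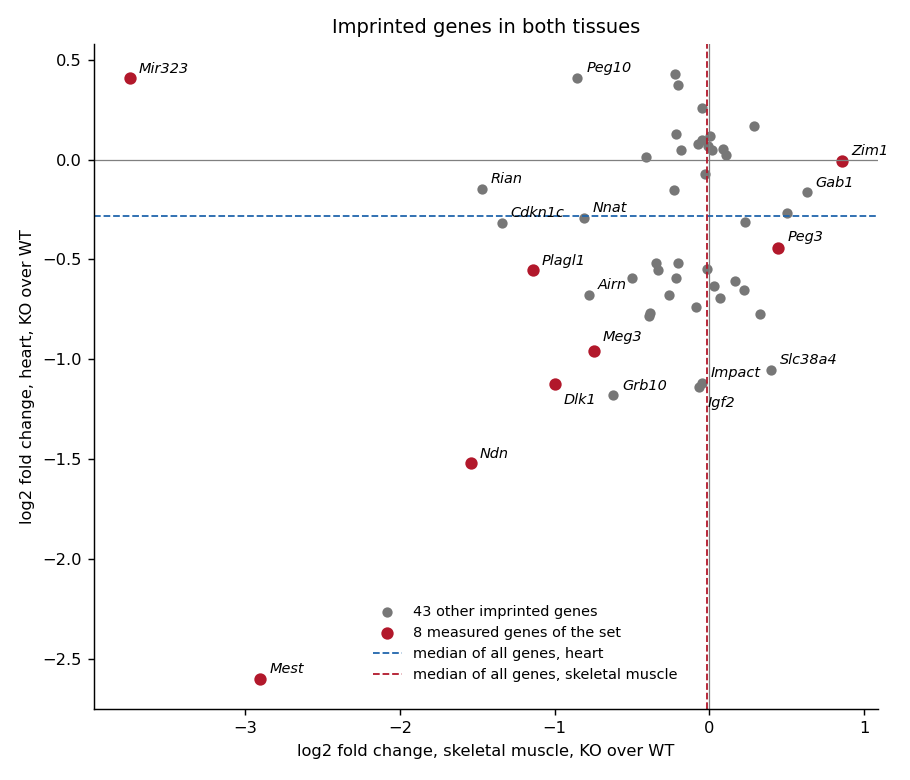
Log2 fold change, KO over WT, in skeletal muscle (x) and heart (y) with the deposited values, for the 8 measured genes of the set (red) and 43 other imprinted genes (grey). Dashed lines give the median of all genes, -0.02 in skeletal muscle and -0.28 in heart. Mest stands alone at -2.90 and -2.60, Ndn, Dlk1 and Meg3 lie low in both tissues, and Igf2 is low in heart only.

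Genes next to the members on the chromosome were looked at as well. The 5 measured genes on either side of each member gave 80 genes, 55 of them outside the chromosome 12 domain. Of these 55 genes 5 fell and 1 rose in skeletal muscle past the threshold, near or below the shares of all genes (10.9% lower, 11.6% higher), with a median of -0.07. In heart 25 of them fell and 1 rose, where 49.0% and 1.99% of all genes did. Among the 10 neighbours of *Mest* 2 fell, by 0.47 (*Cpa5*) and 0.33 (*Copg2*), and among those of *Ndn* 1 fell, *Atp10a*, by 0.61. These 3 genes, like the other neighbours named here, were named after their values were seen. *Mir335*, which lies within *Mest*, was at 26.3 ± 0.779 in KO and 32.8 ± 3.06 in WT skeletal muscle. *Mir675*, whose hairpin is part of the *H19* RNA, had signals of 4105, 4009 and 3867 in KO and 3451, 4570.3 and 3848 in WT skeletal muscle, and the groups overlapped. In heart it was at 128 ± 11.6 in KO and 206 ± 43.1 in WT mice. Its probe set stands for *Mir675* alone in the annotation and is not taken as a value of *H19*.

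Genes with a profile like that of the set were sought by the root mean square difference from the mean standardized profile of the 8 members over 12 arrays, among 9263 genes with a mean signal of at least 64. The nearest were *Angptl1* (0.198), *Tnk2*, *Ccdc88c*, *Galnt17* and *Prss23*, where the median gene was at 0.898. *Angptl1*, which encodes a secreted angiopoietin-like protein, had signals of 142, 91.9 and 119 in KO and 398, 389 and 312 in WT skeletal muscle, and of 12.3, 15.4 and 11.1 in KO and 63.6, 43.2 and 45.1 in WT heart. Of the members *Dlk1* (0.310), *Ndn* (0.315) and *Meg3* (0.320) were nearest to their common mean and *Mest* (0.792) was farthest. The profile rests on 4 groups, so the likeness is mostly that of their means.

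Most fibroblast and proliferating cell markers were lower in KO mice in both tissues, and most satellite cell and myoblast markers in skeletal muscle. Fewer cells of a type and less RNA per cell cannot be told apart in bulk tissue. In skeletal muscle 10.9% of all genes were lower, and in heart 49.0%, or 17.9% after quantile normalization. Of 14 fibroblast markers 11 were lower and 1 higher in KO skeletal muscle, and 14 were lower in KO heart (13 after quantile normalization). Their summed signal ran from 7913 to 9322 in KO and 15670 to 18228 in WT skeletal muscle, and from 3527 to 5034 in KO and 12027 to 15550 in WT heart. Of 14 proliferating cell markers 10 were lower in KO skeletal muscle and 14 in KO heart (13 after quantile normalization), with sums of 865 to 1380 in KO and 1489 to 2544 in WT skeletal muscle and of 515 to 611 in KO and 1723 to 3353 in WT heart. Of 15 satellite cell and myoblast markers 9 were lower and 1 higher in KO skeletal muscle, and 5 lower and 1 higher in KO heart (4 and 2 after quantile normalization), and *Myog* fell by 1.66 in skeletal muscle. Their sums were 2474 to 2971 in KO and 3580 to 4346 in WT skeletal muscle, and 1101 to 1521 in KO and 3073 to 3881 in WT heart. The sums of these 3 lists did not overlap between KO and WT arrays in either tissue. They are sums of deposited values, and in heart the KO arrays lay wholly below the WT arrays for 53.3% of all genes. The median log2 fold change of the satellite cell and myoblast markers in heart was 0.01, beside -0.28 for all genes. Their sums in WT heart overlapped those in WT skeletal muscle, so this list does not mark those cells alone.

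The other lists moved in 1 tissue or in part. Of 12 endothelial markers 1 was lower and 1 higher in KO skeletal muscle, with overlapping sums of 7128 to 7999 in KO and 7541 to 9328 in WT mice. In heart 12 were lower (5 after quantile normalization, with 1 higher), and the sums, 6077 to 7662 in KO and 11148 to 13559 in WT mice, did not overlap. Of 8 adipocyte markers 7 were higher and 1 lower in KO skeletal muscle, with sums of 4359 to 6106 in KO and 2406 to 3009 in WT mice, and 1 was lower in KO heart (none after quantile normalization). Of 14 cardiomyocyte markers 2 were higher and 2 lower in KO skeletal muscle, among them *Sln*, which rose by 2.87, and *Actc1*, which fell by 1.56, and the sums were lower without overlap, at 4132 to 5366 in KO and 8415 to 10470 in WT mice. In heart 6 of them were lower (1 after quantile normalization). Of 17 skeletal muscle fibre markers none passed the threshold in skeletal muscle, with sums of 90379 to 96365 in KO and 79018 to 105518 in WT mice, and 10 were lower in heart (8 after quantile normalization). None of the lists held a marker at 0 on any array, and their part in the values of the members was not tested.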

How the data were processed

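Total RNA of hind limb skeletal muscle and heart had been hybridised to Affymetrix Mouse Gene 1.1 ST arrays, 1 sample per array and 3 per group. The deposited values are 1 linear intensity per probe set and array, made by the authors with Affymetrix Expression Console and PLIER, as the submitters' processing notes name them, and how arrays were normalized against each other was not stated. Arrays have no counts, so their number limits the precision, and p-values set a difference of group means against the spread between these samples. Gene names came from the platform annotation, in which 21218 of 35556 probe sets have 1 symbol, 1881 several and 12457 none. The brightest probe set of each symbol was used, giving 18820 genes, and log2(intensity + 16) was fitted over the 4 groups with limma 3.58.1 in R 4.3.3, p-values being adjusted over all 18820 genes by Benjamini-Hochberg (threshold 0.05). No column of per-sample values was left unused. The fit was tested on simulated data.

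The members and the gene and marker lists were chosen with earlier results of these data known, so no list was tested as a set. Which values chose each member is not recorded. Named were all members, up to 6 other imprinted genes per tissue with the largest change past the threshold, *Igf2*, *Cdkn1c*, *Grb10*, *Igf2r*, *Rian* and *Rtl1* in any case, up to 8 genes between *Dlk1* and *Dio3* by size of change, the 5 genes nearest in profile, and up to 2 markers per list. Alternatives were other scalings, offset, filter, probe set rule, priors, array weights, a replicate block, each tissue alone, the methods' t-test, and leaving out each array. Sequences were taken from RefSeq tables of GRCm38.p6 with Python 3.11.15.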

Additional observations from a re-analysis of the deposited data

Results flagged for a closer look

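For 28 genes, the members and the named genes, the KO to WT fold change in skeletal muscle was set against that in heart, and for 19 the difference passed the test (limma, adjusted over all genes, skeletal muscle minus heart, log2 scale). These genes had been named for a large change in 1 of the tissues or chosen by results in skeletal muscle, which makes a difference between the tissues likely beforehand, so the count is not read against the 42.7% of all genes that passed. Of the 19, 11 also passed after quantile normalization within each tissue, where 10.5% of all genes passed. The 19 had already passed with the deposited values, so nothing is read from this count either.

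A smaller KO to WT ratio in skeletal muscle was seen for *Mir323* (-4.15), whose difference was known when the list was made, and for *Mir379* (-2.20), *Mir377* (-2.10), *Mir382* (-2.07), *Mir329* (-1.95), *Mir134* (-1.80), *Mir376b* (-1.75), *Rian* (-1.32), *Peg10* (-1.26) and *Cdkn1c* (-1.02). These 10 passed after quantile normalization too, and *Mir665* (-1.87) did not. Mean signals of *Mir379*, *Mir377*, *Mir329*, *Mir134*, *Mir376b* and *Rian* in WT heart lay below the offset of 16, and that of *Mir382* just above it. That of *Mir323* was low as well, at 28.1, with arrays at 25.3, 50.2 and 8.73. These low levels limit the decrease that heart could show for all of these genes, so their difference rests mainly on the change in skeletal muscle. Whether KO changes these genes less in heart cannot be told from it.

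A larger ratio in skeletal muscle was seen for *Slc38a4* (1.45), which passed in both versions. *Ube3a* (1.103), *Igf2* (1.07), *Impact* (1.07), *Peg3* (0.89), *Zim1* (0.87), *Gab1* (0.79) and *Grb10* (0.56) passed with the deposited values only. For *Igf2* the difference after quantile normalization was 0.23 and for *Peg3* 0.07.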

How the results depend on the processing

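Scaling decided most of what moved in heart. The count of members lower in heart was 6 with the deposited values and 3 after quantile normalization within each tissue, over 12 arrays, or with upper-quartile scaling, and 3 with the methods' t-test after Benjamini-Hochberg adjustment. Upper-quartile scaling and sex as a covariate were chosen after seeing the data. In heart the other imprinted genes lower were 5, 5 and 4 under those 3 scalings, and those higher 6, 6 and 17. Under upper-quartile scaling 1 member was higher. Of all 18820 genes 3363, 3397 and 2747 were lower and 2609, 2682 and 6768 higher under the 3 scalings, so nothing is read from these counts. With the t-test 8042 were lower in heart. Other imprinted genes higher in heart were 5 with median centring, 7 with array weights and 0 with offset 1 or the t-test. Of all genes 1759, 1561, 535 and 217 were higher there, in that order. Genes of the chromosome 12 domain lower in heart were 0 with median centring, both quantile versions, upper-quartile scaling or sex as a covariate. They were 3 with array weights or the t-test and 5 with offset 1. All genes lower in heart were 6203 with median centring, 8890 with the sex covariate, 9833 with array weights and 9274 with offset 1. In skeletal muscle the t-test left 1 member lower and 0 higher, and 4 other imprinted genes lower and 0 higher. It left 1 gene of the domain and 0 neighbours lower. Of all genes it left 294 lower and 366 higher, beside 2050 and 2179 in the main fit. Members higher in skeletal muscle were 2 with median centring, without dim genes, or with a trended robust prior, *Zim1* and *Peg3*. All genes higher were 2401 with median centring, 2106 of 10368 without dim genes and 2035 with that prior. Array weights gave 5 other imprinted genes higher (2694 of all genes), and leaving out dim genes left 15 of the domain lower (1790 of 10368 genes). Neighbours lower were 2 with median centring or offset 1, and 3 without dim genes or with sex as a covariate. With quantile normalization within tissues and over 12 arrays they were 9 and 8. All genes lower were 1511 with median centring, 1616 with offset 1 and 1815 with the sex covariate. With the 2 quantile versions they were 2776 and 2744.

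With 1 array left out, skeletal muscle had 5 to 6 members lower and 1 to 2 higher, and heart 4 to 6 lower and 0 higher. Between the tissues 3 to 4 differed, and 7 to 8 were higher in WT skeletal muscle than in WT heart. Of all 18820 genes 1359 to 2136 were lower and 1454 to 2438 higher in skeletal muscle. In heart 8322 to 9292 were lower and 224 to 876 higher. The difference between the tissues was called higher for 6739 to 8071 and lower for 183 to 566. In WT skeletal muscle 4119 to 5897 were higher than in WT heart. Other imprinted genes lower were 7 to 12 in skeletal muscle and 20 to 23 in heart, and higher 2 to 5 and 0 to 2. The domain had 26 to 35 lower in skeletal muscle and 0 to 1 in heart, and 2 to 7 neighbours were lower. The difference between tissues ranged from -0.18 to 0.33 for *Dlk1*, from -0.00453 to 0.45 for *Meg3* and from -0.18 to 0.14 for *Ndn*, and *Zim1* in heart from -0.13 to 0.0846.

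Signs turned in heart under quantile normalization within tissues, over 12 arrays and upper-quartile scaling, in that order, for *Peg3* (0.24, 0.25, 0.22), *Plagl1* (0.105, 0.104, 0.0823), *Cdkn1c* (0.22, 0.21, 0.27), *Igf2r* (0.16, 0.16, 0.16) and *Zim1* (0.28, 0.28, 0.50). *Zim1* was also at 0.20 with median centring and 0.0419 with array weights. The same 3 scalings turned the difference between tissues of *Dlk1* (-0.13, -0.0629, -0.20) and *Meg3* (-0.53, -0.55, -0.39). With offset 1 the difference of *Ndn* was 0.0598, *Rian* in heart was 0.0813 with upper-quartile scaling, and *Igf2* in skeletal muscle was 0.00473 with median centring. The cause was not tested.

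Replicates with the same number deviated from their group means with correlations between -0.19 and 0.13. In skeletal muscle replicates 2 and 3 of KO and WT had 0.12 and 0.13, against at most 0.02 and 0.01 with another number. In heart the correlations of KO and WT replicates with the same number were negative. With 3 arrays per group such values cannot tell whether the numbers pair the samples, and the main fit assumed no pairing. With the replicate number as a block 2 members were higher in skeletal muscle, *Peg3* passing beside *Zim1*, where 2133 of all genes were higher. No other count of members moved by more than 1.5 times.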
